A study of Mus musculus with 4 samples.

Results

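The killer cell lectin-like receptor family was taken as every gene of the count tables whose symbol starts with Klr and 1 letter from a to k, which gave 26 of 32285 genes. Whole lungs were from mice with an edited Galt gene (GAL, 2 libraries) and from wild-type mice (WT, 2 libraries); the Galt product is an enzyme that breaks down galactose. The labels do not give the kind of edit, the strain, sex or age, or how many animals went into a library, so p-values measure only the spread between libraries. The lungs were digested with collagenase IV and DNase I and the cells were barcoded in droplets, so all levels are of recovered cells. Galt itself was at 13.4 and 10.6 CPM (UMI counts scaled to a common library total) in GAL replicates 1 and 2, against 11.4 and 11.4 CPM in WT replicates 1 and 2 (log2 fold change 0.05 ± 0.18, standard error; adjusted p = 0.952, edgeR quasi-likelihood test), so its transcript level did not tell the groups apart.

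The receptors of this family are lectin-like proteins on natural killer (NK) cells and some T cells. Those with an immunoreceptor tyrosine-based inhibitory motif in the cytoplasmic tail hold the cell back when they bind their ligands. For many of them these are class I or class I-like molecules. Many of those without the motif signal through adaptors such as Tyrobp (DAP12) or Hcst (DAP10). The Klra genes encode the Ly49 receptors of rodents, Klrd1 (CD94) pairs with the products of the Klrc genes (NKG2), Klrk1 encodes NKG2D, the Klrb1 genes encode the NKR-P1 receptors, and Klrg1 encodes a receptor for cadherins.

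All 26 genes lie on chromosome 6 of GRCm38, and 24 of them fall between positions 128609227 and 131247362, 21 on the minus strand; Klrg1 (122270596 to 122282882) and Klrg2 (38625693 to 38637242) lie outside. The first 48 bases of the coding sequence show how closely the Klra genes resemble each other and where an activating member departs from an inhibitory one. They are given here for 5 members, from the GENCODE vM21 transcripts (GRCm38), with every difference from Klra1 in capitals.

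Klra1: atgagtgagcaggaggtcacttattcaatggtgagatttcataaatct

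Klra9: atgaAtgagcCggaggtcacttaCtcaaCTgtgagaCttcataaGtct

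Klra4: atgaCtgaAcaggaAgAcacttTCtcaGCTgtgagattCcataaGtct

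Klra8: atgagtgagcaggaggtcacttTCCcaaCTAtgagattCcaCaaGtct

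Klra17: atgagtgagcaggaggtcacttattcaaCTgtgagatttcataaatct

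Klra1 (Ly49A) and Klra9 (Ly49I) are inhibitory, Klra4 (Ly49D) and Klra8 (Ly49H) are activating and use Tyrobp, and Klra17 encodes Ly49Q, an inhibitory receptor. Relative to Klra1, with bases counted from 1 at the start of the coding sequence, Klra4 and Klra8 carried A23T, which turns a tyrosine codon of the inhibitory motif into TTC; none of the other 8 Klra genes did. Across the whole coding sequence Klra9 and Klra10 were identical at 96.9% of aligned bases, Klra3 and Klra10 at 96.3%, and Klra4 and Klra8 at 77.1%. Reads of such pairs may be assigned to either gene or dropped, so the split between Klra3, Klra9 and Klra10 is uncertain. Klrb1b and Klrb1c overlap the annotated gene Gm44511 on the same strand, which leaves their split uncertain too. Of the 100-base windows of these 2 genes, 25.4% and 21.2% also occur in another gene. Such windows made up 15.9% for Klrc1, 17.0% for Klrc2, 20.9% for Klrc3 and 14.4% for Klra8, so the counts of these genes are uncertain as well. For Klra3, Klra9 and Klra10 they made up 1.93%, 4.41% and 5.25%. Whether counting used strand is not given, and Klrb1f and Klra17 each overlap genes on the opposite strand.

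The 200 bases upstream of the annotated start are shown for Klra4 and Klra8, which were found mostly in NK cells, and for Klra17 and Klra2, which were found in myeloid cells. They come from RefSeq (GRCm38.p6) and are on the minus strand, and capitals mark GAGGAA, the short core of a PU.1 site, or its reverse complement TTCCTC.

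Klra4 chr6:130067272-130067471: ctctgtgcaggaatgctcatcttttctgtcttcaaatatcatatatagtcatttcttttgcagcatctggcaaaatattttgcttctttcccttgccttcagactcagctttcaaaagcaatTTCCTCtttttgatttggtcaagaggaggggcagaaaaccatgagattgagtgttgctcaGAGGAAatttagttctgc

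Klra8 chr6:130129899-130130098: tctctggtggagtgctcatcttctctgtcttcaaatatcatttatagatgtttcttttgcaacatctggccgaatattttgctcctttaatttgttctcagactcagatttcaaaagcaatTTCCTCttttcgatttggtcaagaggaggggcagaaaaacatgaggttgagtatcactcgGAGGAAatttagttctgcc

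Klra17 chr6:129876673-129876872: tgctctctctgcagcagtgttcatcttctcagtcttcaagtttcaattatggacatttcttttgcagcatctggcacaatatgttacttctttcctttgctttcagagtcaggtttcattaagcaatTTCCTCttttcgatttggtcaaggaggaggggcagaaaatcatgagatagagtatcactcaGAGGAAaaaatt

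Klra2 chr6:131247363-131247562: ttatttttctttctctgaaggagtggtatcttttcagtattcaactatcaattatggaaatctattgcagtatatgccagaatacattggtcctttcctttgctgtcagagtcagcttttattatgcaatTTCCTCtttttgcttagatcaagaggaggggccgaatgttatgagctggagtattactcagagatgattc

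These 4 promoters resemble each other although the genes were read in different cells. Over the RefSeq windows, 250 bases before to 50 after the start, Klra4 and Klra8 shared 86.0% of aligned bases, Klra17 and Klra4 79.3%, and Klra17 and Klra2 74.6%. GAGGAA, searched on both strands in windows of 200 bases, was in 10 of 13 windows of Klra genes (76.9%), against 19% of all 32851 windows. It was in 15 of 28 such windows of the family, and in 17 of 28 full windows (28.3% of all windows). Because promoters of Klra genes resemble each other, their matches are not independent. Of 26 members, 23 had a RefSeq window. Of the other letters searched on both strands in the full windows, the Runx core TGTGGT was in 9 of 28 windows of the family (16.8% of all windows), the Tcf letters CTTTGA in 8 (16.0%), and the T-box letters AGGTGT in 1 (13.7%). The longer letters AGGTGTGA (1.28% of all windows) and GAGGAAGT (3.20%), which contain AGGTGT and GAGGAA, were in none, while GGAA, part of GAGGAA, was in 27 (96.0%). These are matches of letters and not sites of binding.

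The libraries held 12275 and 12045 barcodes in GAL and 14213 and 15583 in WT, with 56218178 to 62406681 unique molecular identifiers (UMIs) each; 354 to 412 barcodes of a library also occurred in another one. After filters, 10967 and 10757 GAL cells and 12441 and 13515 WT cells were left, with medians of 3709 and 2841 UMIs in GAL and 2361 and 2363 UMIs in WT. Cell types were gated by marker genes that include no Klr gene. Between 21.5% and 29.2% of cells, with 27.6% to 38.1% of UMIs, fell in no gate. The NK gate (at least 2 UMIs over Ncr1, Eomes, Prf1 and Gzma, and none of the T cell receptor complex) took in 196 and 404 cells in GAL and 328 and 850 in WT, that is 1.79% and 3.76% of GAL cells and 2.64% and 6.29% of WT cells. WT replicate 2 had the largest share. Gzma, a granzyme gene used for this gate, was at 8310 to 11826 CPM in it. The summed level in this gate was 528 to 861 CPM for 3 macrophage markers and 209 to 965 CPM for 3 B cell markers. For 2 club cell markers it was 99.6 to 545 CPM. Klrb1c, the member with the highest mean level there, was at 469 to 660 CPM. RNA of other cells was thus present in every library, and its part in the results was not tested.

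**Figure D1:**
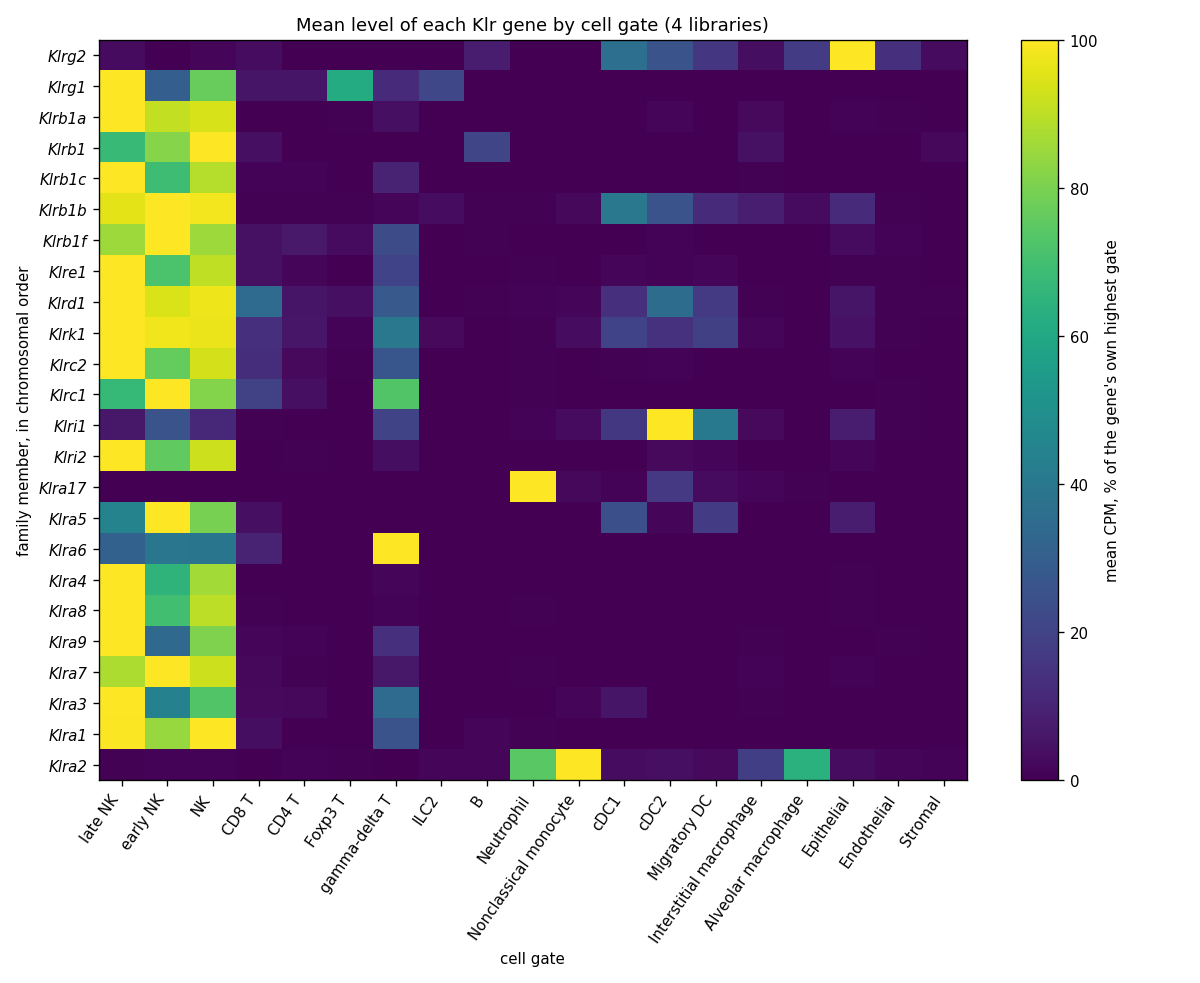
Mean CPM over 4 libraries of each of the 24 members with at least 20 UMIs in these gates (down the page, in chromosomal order) in each gate (across), as % of the gene's own highest gate. Most members peak in the 3 NK gates on the left, Klra17 in neutrophils and Klra2 in nonclassical monocytes; members with few UMIs, such as Klrg2 and Klra6, have an uncertain peak.

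The first question was which lung cells carried the family. NK cells held it above all: its summed level was 5423 and 3861 CPM in GAL and 4207 and 5395 CPM in WT. T cells were at 368 and 171 CPM in GAL and 199 and 315 CPM in WT. B cells, endothelial cells and stromal cells stayed between 8.34 and 38.1 CPM in every library. All values are CPM of UMIs summed over the cells of a library. They set 1 gene against itself in other cells, and not 1 gene against another, because the share of a gene's reads that was counted can differ between genes. Where members are ranked by level, the order is of UMIs counted.

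Klra4 and Klra8, the activating Ly49 genes named above, had the highest shares of their UMIs in NK cells and the highest differences between NK cells and all T cells of the members tested. Against CD8 T cells alone the order was another: the log2 difference was 8.51 ± 0.27 for Klri2, 8.42 ± 0.21 for Klra4, 8.14 ± 0.37 for Klrb1a and 7.60 ± 0.20 for Klra8. The CD8 gate held only 2, 6, 1 and 11 UMIs of these genes over the 4 libraries, so their sizes and order there are uncertain. The ± values do not cover this counting error. Klra4 was at 597 and 366 CPM in GAL NK cells and at 394 and 611 CPM in WT NK cells; in T cells it was at 1.65 and 2.15 CPM in GAL and at 1.23 and 1.88 CPM in WT. Klra8, whose product binds a cytomegalovirus protein, was at 684 and 356 CPM in GAL NK cells and 376 and 569 CPM in WT NK cells, and at 4.04 and 1.99 CPM in GAL T cells and 1.23 and 1.88 CPM in WT T cells. The NK values lie far above the T cell values in all 4 libraries, and 82.3% of all Klra4 UMIs and 80.4% of all Klra8 UMIs were in the NK gate. NK cells exceeded T cells by 7.85 ± 0.16 for Klra4 and 7.52 ± 0.16 for Klra8 (log2 fold change ± standard error, 4 libraries as blocks). These standard errors were derived from the test statistic and are too small here. T cells held only 42 Klra4 and 54 Klra8 UMIs, whose counting error alone is larger. Among inhibitory Ly49 genes, Klra9 was at 293 and 242 CPM in GAL and 250.3 and 372 CPM in WT, and Klra7 (Ly49G) at 303 and 134 CPM in GAL and 178 and 205 CPM in WT. Their differences from T cells were 5.02 ± 0.18 and 5.32 ± 0.15.

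Klrb1c, which encodes the activating receptor known as the NK1.1 antigen, was at 652 and 469 CPM in GAL NK cells and 618 and 660.0 CPM in WT NK cells. Klrb1b, an inhibitory NKR-P1 receptor for the Clec2d product, was at 276 and 394 CPM in GAL and at 304 and 382 CPM in WT. The NK to T difference was 5.0 ± 0.21 for Klrb1c and 5.84 ± 0.26 for Klrb1b. Klre1, whose product pairs with Klri1 or Klri2, was at 570.2 and 460.3 CPM in GAL and 501 and 591 CPM in WT; Klri2 was at 199 and 179 CPM in GAL and 205 and 249.8 CPM in WT. They exceeded T cells by 4.28 ± 0.16 and 6.33 ± 0.18.

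Klrd1 and Klrk1 were shared with other cells. Klrd1 was at 454 and 383 CPM in GAL NK cells and 367 and 539 CPM in WT NK cells, against 101 and 50.4 CPM in GAL T cells and 40.9 and 115 CPM in WT T cells. Klrk1 was at 477 and 254 CPM in GAL NK cells and 267 and 369 CPM in WT NK cells, against 70.9 and 31.9 CPM in GAL T cells and 33.0 and 60.5 CPM in WT T cells. NK cells remained above T cells in every library, by 2.35 ± 0.15 for Klrd1 and 2.58 ± 0.11 for Klrk1. The NK gate held only 27.8% of Klrd1 UMIs and 31.3% of Klrk1 UMIs, while the T gate held 30.6% and 29.3% and mononuclear phagocytes 16.2% and 15.4%.

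With no filter on low counts, 21 of 26 members were called higher in NK cells than in T cells at an adjusted p under 0.05 (edgeR quasi-likelihood test, Benjamini-Hochberg) and 0 lower, against 7.27% of all genes called higher. Against CD8 T cells alone, 18 of 25 members were higher and 0 lower, against 9.28% of all genes. The differences from CD8 T cells were smallest for Klrd1 (1.12 ± 0.09) and Klrc1 (1.69 ± 0.17). Klrc1 (NKG2A), the inhibitory partner of Klrd1, had 36.7% of its UMIs in the NK gate and 45.1% in the T gate. Of the 13 adaptor and signalling genes listed for this family, 6 were called higher in NK cells than in T cells and 3 lower; Tyrobp exceeded T cells by 4.97 ± 0.11 and Syk, a kinase that acts behind Tyrobp, by 3.30 ± 0.15. Of all 51 listed genes of the pathway 40 were tested, 19 were higher and 8 lower, against 32.9% of all genes called in either direction under the same filter; Eomes and Ncr1 are among them and defined the gate. Against CD8 T cells 21 of 38 were higher and 7 lower (37.8% of all genes in either direction).

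Some members had few UMIs in NK cells. Over the 4 libraries together the NK gate held 18 UMIs of Klra6, 14 of Klra10, 11 of Klrb1, 10 of Klrc3, 9 of Klri1, 6 of Klra2, 1 of Klrg2 and 0 of Klra17. Of the remaining members, Klra1, Klra3, Klra5, Klrb1a, Klrb1f, Klrc1 and Klrc2 were read in NK cells of every library.

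**Figure D2:**
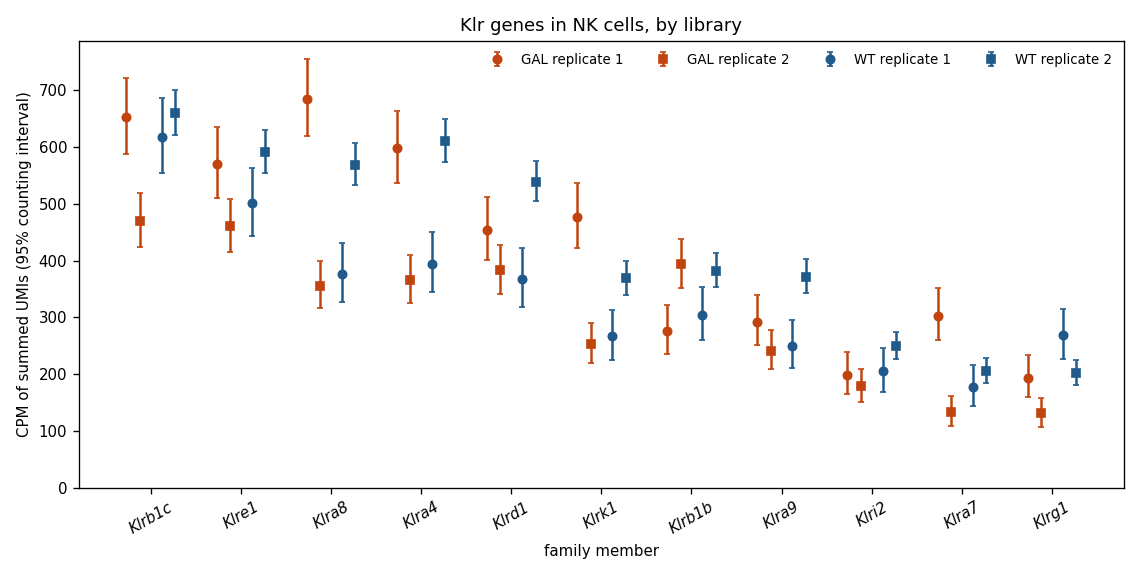
Level (CPM of summed UMIs) of 11 members in NK cells of each library, with exact 95% intervals for counting error, GAL left of WT. GAL and WT points overlap for all of them but Klri2 and Klrg1, whose GAL points lie lower.

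Single NK cells carried different sets of these genes. To compare cells of unlike depth, each was thinned to 1000 UMIs, which kept 190 and 387 GAL cells and 275 and 788 WT cells. Klrb1c was then seen in 51.1% and 35.9% of GAL NK cells and in 44.4% and 45.7% of WT NK cells (unthinned 76.5%, 58.4%, 56.1% and 65.9% in the same order of libraries). Klra4 was seen in 36.3% and 24.3% of GAL cells and in 31.6% and 36.7% of WT cells, and Klra8 in 40.5% and 21.4% of GAL cells and in 27.6% and 33.2% of WT cells. Klra4 was in at most 0.267% of B cells of any library (Klra8 at most 0.183%). Intervals for these shares cover counting error only; for Klra8 the exact 95% interval ran from 33.5% to 47.9% in GAL replicate 1 and from 17.5% to 25.9% in GAL replicate 2, so the GAL libraries differed beyond it.

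Counting 9 Klra genes per thinned cell, 23.2% and 40.3% of GAL NK cells and 30.9% and 24.7% of WT NK cells showed none. The exact 95% intervals were 17.4% to 29.8% and 35.4% to 45.4% in the GAL libraries and 25.5% to 36.7% and 21.8% to 27.9% in the WT libraries. 3 or more were seen in 15.8% and 4.65% of GAL cells and in 8.36% and 10.4% of WT cells. A receptor at low level is often missed at this depth, so these are upper limits for cells without one: unthinned, cells with none made up 14.3% and 23.8% in GAL and 22.0% and 15.3% in WT. At least 1 of the 26 members was seen in 95.3% to 98.5% of thinned NK cells. At 1000 UMIs the highest and lowest shares with none were both in GAL, while at 2000 UMIs, with fewer cells, both were in WT (16.6% and 26.3% in GAL, 27.9% and 12% in WT).

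Klra8 was seen more often in NK cells with a Klra4 UMI than in the others. Klra8 was in 55.1% and 26.6% of Klra4-positive GAL NK cells, against 32.2% and 19.8% of the other GAL NK cells. In WT it was in 32.2% and 42.9% of Klra4-positive cells, against 25.5% and 27.7% of the others. Klrc1 showed the opposite relation to the Klra genes: a Klra gene was seen in 64.7% and 30.8% of Klrc1-positive GAL NK cells, against 78.0% and 61.8% of the others. In WT the shares were 64.7% and 58.3% of Klrc1-positive cells, against 69.4% and 76.6% of the others. Both relations had the same direction in all 4 libraries. The Klrc1 relation rests on 17 and 26 Klrc1-positive GAL cells and 17 and 60 such WT cells. In WT replicate 1 its gap, 64.7% of 17 cells against 69.4%, was too small to tell from counting error. No test was made across cells.

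**Figure D3:**
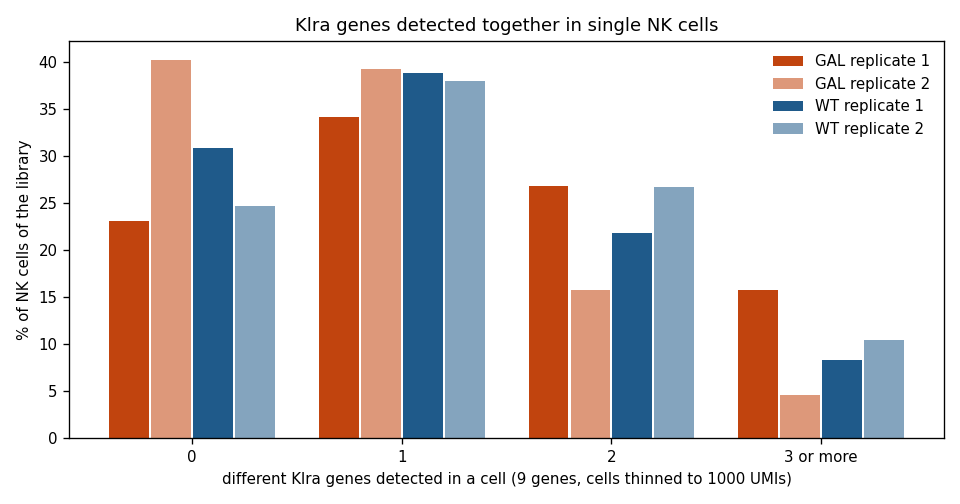
Share of NK cells of each library (%, bars) with 0, 1, 2 or at least 3 of 9 Klra genes seen, each cell thinned to 1000 UMIs. Cells with none make up 40.3% in GAL replicate 2 and 23.2% in GAL replicate 1.

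Within NK cells, late cells (with Itgam, S1pr5 or Cma1 and none of Cd27, Ltb and Emb) were set against early cells (the reverse), a division along NK cell maturation. Klrg1 and Klra9 rose most. Klrg1, a known marker of mature NK cells, was at 235 and 174 CPM in late and 111 and 40.6 CPM in early GAL cells, and at 362 and 263 CPM in late and 97.8 and 57.7 CPM in early WT cells. Its late values exceeded the early ones in each library, by 1.76 ± 0.22 (adjusted p = 3.8e-05, edgeR quasi-likelihood test). Klra9 was at 379.6 and 304 CPM in late and 157 and 163 CPM in early GAL cells, and at 281 and 468 CPM in late and 12.2 and 157 CPM in early WT cells, a difference of 1.45 ± 0.22 (adjusted p = 0.000309, edgeR). Klra4 (0.53 ± 0.15, adjusted p = 0.048) and Klrb1c (0.50 ± 0.12, adjusted p = 0.0191) were also called higher by edgeR but not by DESeq2. Klra4 did not pass without GAL replicate 1, GAL replicate 2 or WT replicate 1 (adjusted p 0.134 to 0.203, edgeR), nor Klrb1c without WT replicate 2 (adjusted p = 0.225, edgeR).

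Klra8 had a difference of 0.43 ± 0.13 (adjusted p = 0.0645, edgeR) and Klrd1 of 0.03 ± 0.12 (adjusted p = 0.974, edgeR), which did not pass. Without a filter 7 of 25 members were called higher in late cells and 0 lower, against 0.558% of all genes called higher. Klrc1 was at 80.8 and 66.3 CPM in late and 213 and 16.3 CPM in early GAL cells, and at 57.8 and 72.4 CPM in late and 48.9 and 136 CPM in early WT cells. Its difference of -0.65 ± 0.32 did not pass (adjusted p = 0.333, edgeR), but it was called lower in late cells without GAL replicate 2 (-0.996, adjusted p = 0.0375, edgeR), the library with 2 Klrc1 UMIs in early cells. The early gate had 30 and 56 cells in GAL and 39 and 104 in WT, so its values are the less precise ones. Of 31 pathway genes tested, 1 was called (3.86% of all genes in either direction), Zeb2, a transcription factor of late NK cells (0.92 ± 0.22 higher).

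**Figure D4:**
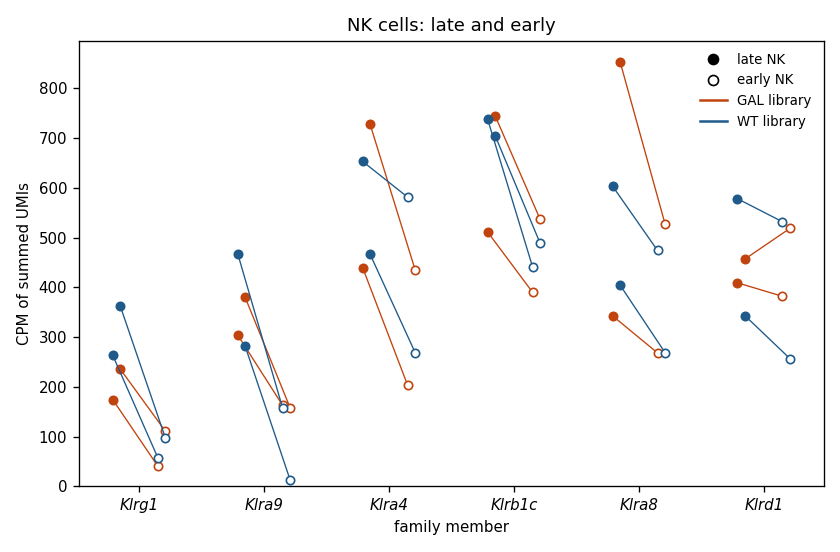
Levels (CPM of summed UMIs) of 6 members in late (filled) and early (open) NK cells, with a line joining the states of 1 library, GAL or WT by colour. Klrg1 and Klra9 lie higher in the late cells of all 4 libraries.

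In CD8 T cells the members with the most UMIs divided by whether the cell also carried Ccl5, a chemokine gene of effector and memory CD8 T cells. Cells with a Ccl5 UMI numbered 154 and 153 of 348 and 364 CD8 T cells in GAL and 135 and 243 of 300 and 612 in WT, and held 43.4% of all UMIs of the CD8 gate. They held 98.8% of its Klrg1 UMIs, 98.3% of Klrc1, 98.1% of Klre1, 96.0% of Klrc2, which encodes an activating partner of Klrd1, and 92.2% of Klrk1. Klrk1 had 71 and 71 UMIs in GAL cells with Ccl5, of 73 and 76 in all GAL CD8 T cells, and 28 and 89 in WT cells with Ccl5, of 34 and 98 in all WT CD8 T cells. Klrc1 had 25 and 31 UMIs in GAL cells with Ccl5 and 13 and 45 in WT cells with Ccl5, which were all of its UMIs in the CD8 gate of every library but WT replicate 2, which had 47.

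Klrd1 did not follow them. It had 99 and 86 UMIs in GAL cells with Ccl5, of 225 and 169 in all GAL CD8 T cells, and 61 and 204 in WT cells with Ccl5, of 111 and 414 in all WT CD8 T cells. The share of its UMIs in cells with Ccl5 was 49.0%, near that of all UMIs, so CD8 T cells without a Ccl5 UMI carried Klrd1 while they held 2 of 116 Klrc1 UMIs. As levels, cells with Ccl5 had Klrk1 at 119.5 and 123 CPM in GAL and 68.7 and 103 CPM in WT, and Klrd1 at 167 and 149 CPM in GAL and 149.8 and 236 CPM in WT. Members with fewer UMIs in the CD8 gate varied. Cells with Ccl5 held 35 of 36 UMIs of Klrb1c and 31 of 32 of Klra9. They held 23 of 27 of Klra7, 9 of 14 of Klrb1b and 7 of 11 of Klra8. These shares describe the cells of the 4 libraries together, and no test was made of them.

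Foxp3 T cells, the regulatory T cells, carried Klrg1 as their leading member. It was at 98.6 and 149.7 CPM in GAL and 208 and 182 CPM in WT Foxp3 T cells, against 16.3 and 5.87 CPM in GAL and 33.5 and 1.91 CPM in WT CD4 T cells without Foxp3. The ranges do not overlap, and the difference was 3.41 ± 0.31 (adjusted p = 4.58e-08, edgeR). Without a filter, 1 of 19 members was called higher and 2 lower, against 1.76% of all genes called higher and 1.96% lower. After thinning, Klrg1 was seen in 9.52% and 17.7% of GAL and in 15.1% and 18.9% of WT Foxp3 T cells, and in at most 0.267% of B cells. Of 30 pathway genes tested 5 were higher and 2 lower (6.97% of all genes in either direction), among them Tox (1.40 ± 0.20), a transcription factor of T cells.

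Gamma-delta T cells, with 37 to 47 cells per library, held the family at 540.0 and 228 CPM in GAL and 1413 and 963 CPM in WT. Klrk1 was at 133 and 39.7 CPM in GAL and 229 and 162 CPM in WT gamma-delta T cells, against 30.1 and 19.2 CPM in GAL and 23 and 12.4 CPM in WT CD4 T cells. Klre1 (3.34 ± 0.48), Klrc2 (3.22 ± 0.56), Klrb1c (3.13 ± 0.49), Klrk1 (2.62 ± 0.33) and Klrd1 (2.14 ± 0.34) were called higher than in CD4 T cells, and without a filter 9 of 21 members were higher and 0 lower, against 1.26% of all genes. The summed level of 3 NK markers in this gate was 777 and 179 CPM in GAL and 2459 and 948 CPM in WT and moved with the members; its part was not tested. Of 31 pathway genes tested 6 were higher and 2 lower (5.32% of all genes in either direction), with Fcer1g, an adaptor, at 2.38 ± 0.30.

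Group 2 innate lymphoid cells (ILC2, 52 and 28 GAL cells, 58 and 57 WT cells) carried Gata3 and Il1rl1, which are among the marker genes of their gate. From 1 to 4 of the 26 members had a UMI in a library. Klrg1 was at 43.3 and 19.6 CPM in GAL and 72.4 and 84.9 CPM in WT ILC2, with 25 UMIs in all, against 20.2 and 17.3 CPM in GAL and 44.5 and 9.09 CPM in WT T cells. The difference was 1.43 ± 0.42 (adjusted p = 0.00984, edgeR), beside a median of -0.28 over all genes; it did not pass without WT replicate 2 (adjusted p = 0.522) or by DESeq2 (adjusted p = 0.0601). Klrd1 had 0 UMIs among 415956 in ILC2 and was at least 10.6-fold lower than in T cells, taking 3 counts over all libraries as the floor, and Klre1 was at least 3.31-fold lower. Without a filter, 1 of 26 members was called higher and 5 lower, against 6.16% of all genes called in either direction. Of 37 pathway genes tested 2 were higher and 10 lower (11.5% of all genes in either direction), with Lck, a T cell kinase, at -2.72 ± 0.33. Gata3, 1 of the genes tested, was also a marker of the gate.

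Outside lymphocytes the family was read in myeloid cells, through other members. Klra2 (Ly49B), a Ly49 gene known from myeloid cells, had 6409 UMIs in all, of which 37.9% were in mononuclear phagocytes, 6.83% in neutrophils, 53.1% in cells outside the gates and 0.09% in NK cells. It was at 81.8 and 92.1 CPM in GAL and 69.5 and 102 CPM in WT neutrophils. In nonclassical monocytes it was at 159 and 83.8 CPM in GAL and 106 and 116 CPM in WT, and in alveolar macrophages at 80.9 and 67.2 CPM in GAL and 62.5 and 85.4 CPM in WT. The difference of nonclassical monocytes from alveolar macrophages was called (0.78 ± 0.17, adjusted p = 0.000904, edgeR). Without a filter 3 of 22 members were called higher and 0 lower, against 9.73% of all genes called higher. Of 28 pathway genes tested 20 were higher in nonclassical monocytes and 4 lower, led by Runx3 (6.54 ± 0.20), where 44.9% of all genes tested were called in either direction.

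Klra17, which is known from plasmacytoid dendritic cells and myeloid cells, was read mainly in neutrophils. It was at 41.8 and 44.2 CPM in GAL and 40.9 and 49.2 CPM in WT neutrophils, which held 62.1% of its 354 UMIs. NK cells had 0 Klra17 UMIs among 3623659, so its level was at least 53.8-fold higher in neutrophils with the floor of 3 counts over all libraries. Plasmacytoid dendritic cells numbered 3 and 0 in GAL and 6 and 0 in WT, too few for a comparison.

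Dendritic cells carried Klrd1, Klrb1b and Klrk1, and interstitial macrophages Klrb1b and Klra2. Over the libraries Klrk1 was at 57.6 to 100 CPM in type 1, 36.1 to 79.9 CPM in type 2 and 44.3 to 87.8 CPM in migratory dendritic cells. Klra2 was at 9.99 to 29.3 CPM in interstitial macrophages. Klrd1 was at 139 and 142 CPM in GAL and 151 and 197 CPM in WT type 2 dendritic cells, a level in the range of CD8 T cells (124 to 201 CPM), while B cells were at 2.05 to 3.77 CPM and interstitial macrophages at 1.58 and 2.72 CPM in GAL and 2.43 and 6.28 CPM in WT. Klrb1b was at 170.1 and 126 CPM in GAL and 104 and 154 CPM in WT type 1 dendritic cells, and at 24.7 and 27.5 CPM in GAL and 20.1 and 44.9 CPM in WT interstitial macrophages. Migratory dendritic cells had Klrd1 at 43.9 and 91.1 CPM in GAL and 111 and 59.8 CPM in WT. Klri1, a partner of Klre1, had 50% of its 190 UMIs in mononuclear phagocytes. The epithelial gate had Klrb1b at 12.9 and 76.9 CPM in GAL and 35.1 and 43.4 CPM in WT. It also held Klrd1 and Klrk1, each at 5.43 to 42.1 CPM over the libraries. Whether these UMIs came from epithelial cells or from other cells in the gate was not tested. No test was made of the levels in this paragraph.

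The second question was whether the family differed between GAL and WT lungs. It was tested in whole lung and in NK, T, CD8 T, CD4 T, Foxp3 T and gamma-delta T cells, nonclassical monocytes, neutrophils and alveolar macrophages, and no member was called in these sums with all 4 libraries. In NK cells 0 of 18 members tested were called, against 0.0301% of 6649 genes; 10 members had positive and 8 negative log2 fold changes, between -0.48 and 0.37, with a median of 0.06 against 0.0026 over all genes, and no member had an unadjusted p under 0.05. DESeq2 called 0 members. On simulated counts of these libraries the test recovered 33.7% of genes changed 2-fold and 87.5% of those changed 4-fold. The changed genes were drawn from all genes that passed the filter, and 2-fold differences of such genes would mostly be missed. The rate for the members themselves was not measured.

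Klrg1 had the largest NK difference. It was at 194 and 131 CPM in GAL NK cells and at 268 and 203 CPM in WT NK cells, so both GAL values lay below both WT values (-0.48 ± 0.27). Klri2 also did not overlap (-0.23 ± 0.24), and these 2 of 18 members (11.1%) compare with 18.3% of all genes whose GAL values both lay below WT; Klrb1f was the 1 member (5.56%) with both GAL values above, against 10.3% of all genes. For Klra8 GAL replicate 1 was the highest library and GAL replicate 2 the lowest (0.18 ± 0.29), with a value of -0.36 without GAL replicate 1. Klra7 had its highest and lowest values in the same libraries (0.22 ± 0.31, and -0.47 without GAL replicate 1). GAL replicate 1 also had the highest summed level of 3 alveolar type 2 markers in the NK gate, 466 CPM against 8.50 to 103 CPM in the other libraries; its part was not tested.

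In whole lung all 24 members tested had negative values, with a median of -0.50 against 0.01 over 16821 genes, and 0 were called (0% of genes; 918 passed an unadjusted p of 0.05, and 31 were called by DESeq2). The family's summed level was 169 and 172 CPM in GAL and 161 and 337 CPM in WT, so WT replicate 2, which had the largest share of NK cells, stood apart. Klra8 was at 10.3 and 7.42 CPM in GAL and 5.10 and 23.4 CPM in WT (-0.68 ± 0.67), and was 0.69 without WT replicate 2. In whole-lung sums fewer cells of a type and less RNA per cell cannot be told apart. Klrg1 was at 5.53 and 5.26 CPM in GAL and 9.34 and 9.82 CPM in WT, with the groups apart (-0.85 ± 0.19, unadjusted p = 0.00696, adjusted p = 0.768, edgeR). In all, 4 of 24 members (16.7%) had both GAL values below both WT values, as had 16.1% of all genes.

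In T cells 0 of 17 members were called (0% of genes; 117 passed an unadjusted p of 0.05, DESeq2 0 calls), and Klrg1 in T cells, at -0.48 ± 0.62, was 0.99 without WT replicate 1, whose value of 44.5 CPM was the highest. In CD8 T cells Klrg1 was higher in both GAL libraries, at 29.1 and 13.2 CPM in GAL CD8 T cells and at 10.8 and 7.30 CPM in WT CD8 T cells, with 40, 18, 9 and 15 UMIs, a difference of 1.34 ± 0.45 (unadjusted p = 0.00887, not called). Klra9 was at 10.2 and 7.35 CPM in GAL and 4.8 and 1.95 CPM in WT (1.62 ± 0.64), with 4 UMIs in each WT library. Klrk1, Klra7, Klra4 and Klrb1f also had both GAL values above both WT values, and the remaining members overlapped. The share of all genes with GAL above WT was not counted in CD8 T cells, so Klrg1 cannot be set against it. 0 of 7 members were called there (0% of genes; 155 passed an unadjusted p of 0.05; DESeq2 made 1 call, not of a member). The summed NK markers in the CD8 gate were 464 and 263 CPM in GAL and 202 and 320.1 CPM in WT; their part was not tested. In Foxp3 T cells Klrg1 was -0.57 ± 0.34, and 0 of 1 member was called (0% of genes; 101 at an unadjusted p under 0.05, DESeq2 0).

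Because the Klrg1 value was negative in NK cells and positive in CD8 T cells, the difference of the 2 effects was tested by an interaction term, added after these values were seen. It was 1.73 ± 0.36 (unadjusted p = 6.55e-05, adjusted p = 0.191, edgeR, 0 of 8270 genes called). It did not pass with the stricter gate, and the adjusted p was 0.0129 without a filter on low counts (edgeR). The term was chosen by signs seen in these same libraries, so its p-values cannot be read as evidence of a difference. Klra9 gave 1.89 ± 0.55 (adjusted p = 0.750, edgeR).

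Gamma-delta T cells had Klrd1 at 74.0 and 29.8 CPM in GAL and 139 and 254 CPM in WT, from 10, 3, 14 and 33 UMIs. Its difference of -1.83 ± 0.51 was not called (adjusted p = 0.148, edgeR), nor was that of Klrk1 (-1.04 ± 0.47); 0 of 3 members were called, against 0.433% of genes. Leaving out GAL replicate 1 called Klrd1 (-2.66, adjusted p = 0.0164, edgeR) and leaving out WT replicate 2 called Klre1 (-2.42, adjusted p = 0.00208, edgeR). The gate's NK markers were lower in both GAL libraries, as given above. Fcer1g was called lower in GAL (-2.67 ± 0.47) among 19 pathway genes tested.

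In CD4 T cells 0 of 4 members were called (0% of genes; 72 at an unadjusted p under 0.05, DESeq2 0). In myeloid cells, 0 of 2 members in neutrophils (0% of genes; 230 at an unadjusted p under 0.05, DESeq2 0), 0 of 1 in nonclassical monocytes (1.05%) and 0 of 3 in alveolar macrophages (0%; 302 at an unadjusted p under 0.05, DESeq2 2) were called. Klra2 was 0.16 ± 0.28 in neutrophils and 0.23 ± 0.32 in nonclassical monocytes, with the groups overlapping, and Klra17 was 0.07 ± 0.29 in neutrophils. Klrb1b in alveolar macrophages, at 9.67 and 13.4 CPM in GAL and 8.13 and 7.07 CPM in WT, gave 0.69 ± 0.30. Of the listed pathway genes, 0 were called in NK, T, CD8, CD4 and Foxp3 T cells, neutrophils, alveolar macrophages and whole lung, and 1 in nonclassical monocytes (Slamf7, 2.19 ± 0.41 higher in GAL, of 26 tested). With 2 libraries a group, an exact permutation test cannot go below p = 0.333, so none was run on single values.

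**Figure D5:**
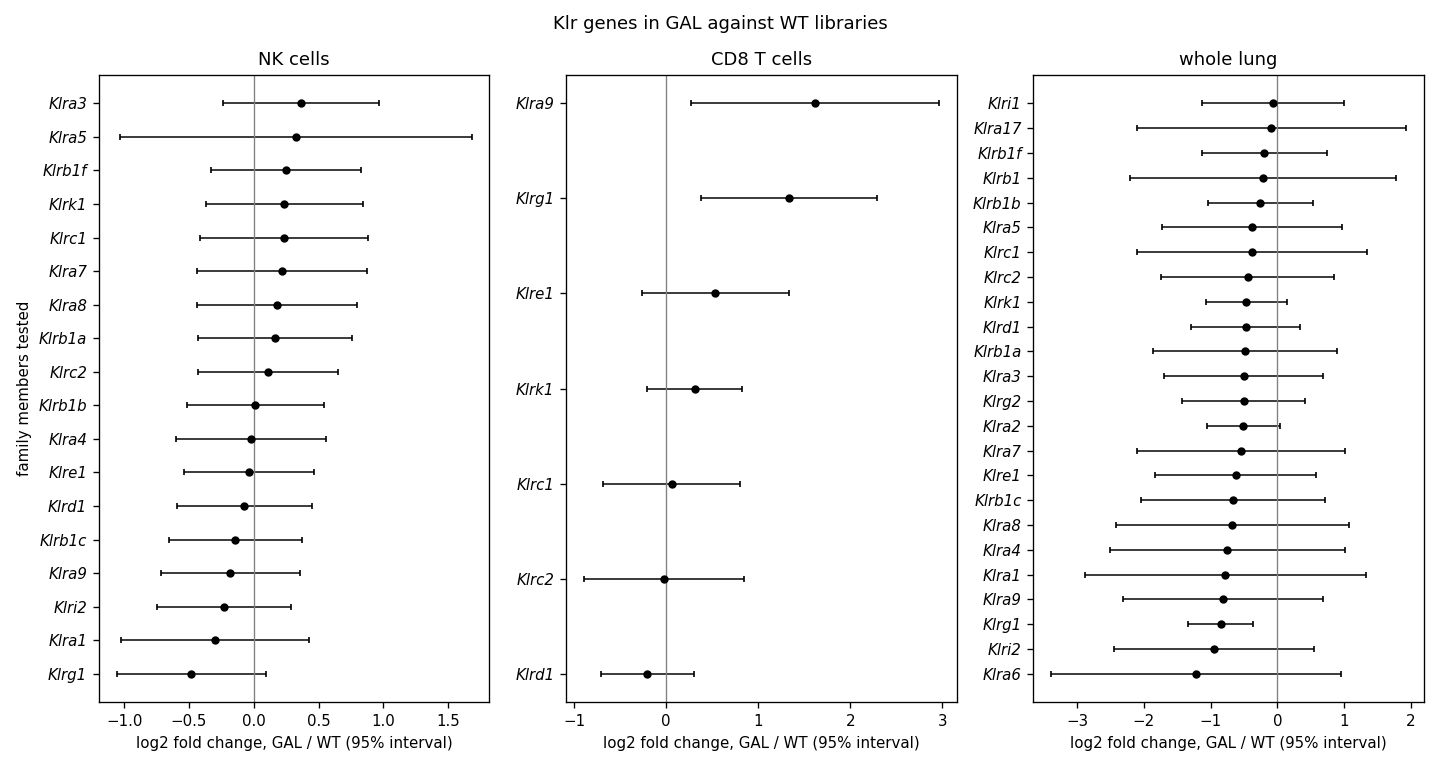
GAL over WT log2 fold changes with 95% intervals of the members tested in NK cells, CD8 T cells and whole lung. In NK cells they lie between -0.48 and 0.37, and in whole lung all 24 lie below 0; in CD8 T cells the intervals of Klra9 and Klrg1 exclude 0 before adjustment.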

How the data were processed

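Whole mouse lungs were measured by droplet single-cell RNA-seq (SeekOne kit, paired-end reads, per the labels). The submitters' processing notes name fastp, STAR, Seurat and GRCm38 (mm10), without versions; the annotation used for counting is not given. The authors deposited raw UMI counts per gene and barcode, 1 matrix per library, and the lowest barcode of each held 500 UMIs.

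Kept cells had 500 or more UMIs, 300 or more genes and no more than 20% mitochondrial UMIs. Scrublet scored doublets (scanpy 1.11.5), and the highest scores were removed up to 0.8% per 1000 cells, since the automatic threshold called 1 to 915 cells per library. A cell entered a lineage gate with at least 2 UMIs of its markers and under 2 of any other list.

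Counts were summed per library and gate, as cells are not replicates. Comparisons used edgeR 4.0.16 (R 4.3.3) quasi-likelihood tests with filterByExpr and TMM scaling. Cell types of 1 library were compared with the library as a block, and p-values were adjusted by Benjamini-Hochberg over all genes of a comparison. GAL and WT were compared in whole lung and the lymphocyte and myeloid gates planned for it, with at least 30 cells per library (20 between cell types); ILC2 fell short, and other gates were not tested between GAL and WT. CPM are of all UMIs of a sum. Standard errors with edgeR values are the log2 fold change divided by the square root of the test's F statistic. For large differences with few UMIs on 1 side they can be smaller than counting error. The tests were checked on simulated counts. NK against T recovered 70.4% of 2-fold and 96.8% of 4-fold changes.

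The rule for members named with values took the 10 highest in NK cells, the 4 highest in T cells and the highest of each other gate, with listed pathway genes by smallest p; Klra17, Klrb1a, Klrb1f, Klrc1, Klrc2 and Klri1, and further gates for a named member, were chosen after their values were seen. Members and lists were chosen with earlier results of these data known. The planned comparison of CD8 T cell states and the levels of classical monocytes are not reported here; the description of CD8 T cells with Ccl5 was chosen after the data were seen. Alternatives were DESeq2 1.42.0, other scaling, filters, gates, doublet and mitochondrial limits, and leaving out each library.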

Additional observations from a re-analysis of the deposited data

How the results depend on the processing

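Of 161 values of single members between GAL and WT under the alternatives, 149 kept their direction and side of the threshold and 11 changed sign; of 245 between cell types, 232 kept both, 9 fell short of the threshold and 2 changed sign. No member was called between GAL and WT under DESeq2, upper-quartile scaling, no filter, no doublet removal, the 10% mitochondrial limit, the stricter gate or clusters; leaving out a library called 0 to 1 in gamma-delta T cells. The causes of the shifts below were not tested.

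For GAL against WT, genes called were 31 in whole lung, 1 in NK cells, 1 in CD8 T cells, 3 in gamma-delta T cells, 24 in nonclassical monocytes and 2 in alveolar macrophages by DESeq2. Without a filter they were 30 in NK cells, 15 in CD8, 13 in CD4, 5 in Foxp3 and 13 in gamma-delta T cells, 158 in nonclassical monocytes, 30 in neutrophils and 130 in alveolar macrophages. Without doublet removal they were 5 in NK cells, 4 in CD8 and 4 in gamma-delta T cells. With the stricter gate they were 0 in NK cells, 1 in gamma-delta T cells, 4 in neutrophils and 4 in nonclassical monocytes. Clusters in place of gates gave 0 in NK cells, and upper-quartile scaling gave 0 in NK cells and 26 in nonclassical monocytes. Leaving out 1 library gave 0 to 660 in whole lung, 3 to 18 in NK cells, 0 to 15 in T cells, 11 to 22 in CD8, 0 to 32 in CD4, 0 to 11 in Foxp3 and 0 to 29 in gamma-delta T cells, 5 to 205 in nonclassical monocytes and 14 to 68 in neutrophils.

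Between cell types, DESeq2 called 1647 genes for NK against CD8 T cells, 251 for Foxp3 against CD4 T cells, 190 for gamma-delta against CD4 T cells and 626 for ILC2 against T cells, with 2 members in late against early NK cells and 3 in ILC2. Without a filter the members called were 7 in late NK, 3 in Foxp3 and 9 in gamma-delta T cells and 3 in nonclassical monocytes, with 511 genes in gamma-delta T cells. Without doublet removal 2 members were called in Foxp3 T cells and 2 in nonclassical monocytes. The stricter gate called 60 genes in late NK cells and 2052 in nonclassical monocytes, with 4 members in ILC2 and 2 in gamma-delta T cells. Leaving out 1 library gave 2434 to 3123 genes for NK against T cells, 2025 to 2679 against CD8 T cells, 65 to 141 in late NK, 222 to 487 in Foxp3 and 187 to 278 in gamma-delta T cells, 629 to 875 in ILC2 and 3388 to 3678 in nonclassical monocytes. The members called in either direction were then 18 to 19, 17 to 18, 3 to 4 (1 of them, Klrc1, lower in late NK cells, without GAL replicate 2), 1 to 2, 5 to 7, 3 to 6 and 1 to 2 in the same order.

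NK cells with no Klra UMI made up 14.3% and 23.8% in GAL and 22.0% and 15.3% in WT unthinned, and 16.6% and 26.3% in GAL and 27.9% and 12% in WT at 2000 UMIs.

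Values that changed sign when 1 library was left out are given as ranges. Klra8 ran from -1.39 to 0.69 in whole lung (above 0 without WT replicate 2) and from -0.36 to 0.58 in NK cells (below 0 without GAL replicate 1 or WT replicate 1), Klra7 in NK cells from -0.47 to 0.71 (below 0 without GAL replicate 1) and Klrg1 in T cells from -1.19 to 0.99 (above 0 without WT replicate 1). In neutrophils Klra2 ran from -0.11 to 0.48 and Klra17 from -0.074 to 0.23, both below 0 without GAL replicate 2 or WT replicate 1, and Klra17 was -0.0018 under upper-quartile scaling. Klra2 in nonclassical monocytes ran from -0.27 to 0.60 (below 0 without GAL replicate 1). Late minus early Klrd1 ran from -0.012 to 0.12 and was -0.019 with the stricter gate.

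No paired analysis was possible because the labels give no replicate number or pair that GAL and WT libraries share; the replicate numbers used here follow the order of the samples and only name libraries. GAL against WT in ILC2, and plasmacytoid dendritic cells against other phagocytes, were not run because libraries held too few cells. Depth limits what can be seen: of genes changed 2-fold in simulated NK counts 33.7% were recovered.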
